A study of Mus musculus with 2 samples.

Results

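The genes described are 9 transcription factors shared by the endocrine cells of gut and pancreas: *Neurog3*, *Neurod1*, *Neurod2*, *Insm1*, *Pax4*, *Pax6*, *Rfx6*, *Isl1* and *Nkx2-2*. They were chosen by gene symbol, and 9 of the 32285 genes in the files matched. Their transcripts were counted in single epithelial cells of the mouse small intestine, from *Neurog3*-expressing progenitors to each hormone-producing subtype and in the cells outside the endocrine lineage.

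Enteroendocrine cells are the scattered hormone-secreting cells of the gut lining. They arise from crypt progenitors in which *Neurog3*, a basic helix-loop-helix factor, switches on for a short time. *Neurog3* turns on later factors, among them *Neurod1*, *Insm1*, *Pax4* and *Rfx6*, and combinations of these with *Pax6*, *Isl1* and *Nkx2-2* are known to steer cells toward peptide hormones or toward serotonin, the product of enterochromaffin cells.

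The study sorted Tomato-positive cells, which descend from cells that once expressed *Neurog3*, and profiled them with the 10x Genomics 3′ single-cell assay. WT mice were of the strain Neurog3Cre; Rosa26tdtomato, and NFKO mice were Neurog3Cre-FoxO1 f/f; Rosa26tdtomato, in which Cre removes the floxed *FoxO1* gene. All mice were 4-6 weeks old, and the Cre driver and the Tomato reporter were carried by both groups. Each group was 1 library made from the small intestines of 4-5 mice, so there was no replicate and no test between groups. The promoter of *Neurog3* drove Cre, which limits the label and the deletion to descendants of *Neurog3*-expressing cells, and the sort took each cell by its history and not by its present state. Such descendants include goblet, Paneth and other non-endocrine cells.

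The 2 libraries held 5051 and 7540 barcodes, of which 3003 cells (WT) and 5292 cells (NFKO) were kept with median depths of 16871 and 16619.5 unique molecules (UMIs) per cell. Barcodes over the limit of 25% mitochondrial UMIs made up 35.6% of the WT and 17.3% of the NFKO library. The median mitochondrial share in kept cells was 4.48% and 3.16%. Of the kept cells, 886 and 1890 were endocrine-like, in 9 clusters named by the marker rule given below. Of 13 endocrine markers, 10 to 12 met that rule in each of these clusters but cluster 3. Cluster 3, with 180 and 370 cells, met it for 5 of them and for 8 of 9 endocrine progenitor markers. Pancreatic acinar markers summed to 0 and 0.309 UMIs per 1000000 UMIs (CPM) in the endocrine-like cells, with 7 of 7 and 5 of 7 at 0. The neural marker *Sox10* was at 0 in those cells in both libraries. *Foxo1* stood at 25.9 CPM in WT and 22.0 CPM in NFKO endocrine-like cells. A tag at the 3′ end can lie outside the deleted part, so this value does not check the label, and those cells are therefore named by it, as the library labelled NFKO or NFKO-labelled cells. Male-typed cells, with a UMI of a Y-linked gene and none of *Xist*, made up 738 of 886 endocrine-like cells in WT and 130 of 1890 among NFKO-labelled cells, so sex and label cannot be told apart. The summed level of 5 stress genes was 5816 CPM (WT) and 2992 CPM (NFKO-labelled).

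Endocrine-like cells were divided by hormone genes, none of which is a member. A cell took the name of its most abundant peptide hormone gene where this held at least 0.5% of its UMIs, and of the remaining cells those with *Tph1*, the rate-limiting enzyme of serotonin synthesis, at 500 CPM and 3 UMIs formed the Tph1 group. The Tac1 and Tph1 groups together are called enterochromaffin, since *Tac1* marks these cells, and the other 6 groups peptide cells. Progenitors are cells with *Neurog3* at 200 CPM and 3 UMIs or more and no hormone gene past its limit: 93 cells in WT and 175 among NFKO-labelled cells. Of these, 9 and 11 lay outside the endocrine-like clusters, and they held 25.04% and 11.4% of the progenitors' UMIs. *Neurog3* chose the progenitors, so its own level in them is a description. In what follows paired values give WT first and the library labelled NFKO second, levels are CPM summed over the cells of a group, ratios carry exact 95% intervals that cover counting error only, and a difference is counted where it reached 1.5-fold among genes with at least 100 UMIs.

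In the mouse build GRCm38 *Neurog3* lies at chr10:62133090-62134763 and *Rfx6* at chr10:51677756-51730432, both on the plus strand. *Neurod1* (chr2:79452521-79456751, minus), *Insm1* (chr2:146221921-146225020, plus), *Nkx2-2* (chr2:147177546-147194243, minus) and *Pax6* (chr2:105668900-105697364, plus) share a chromosome. *Neurod2* (chr11:98325415-98329648), *Pax4* (chr6:28442334-28449353) and *Isl1* (chr13:116298281-116309689) lie on minus strands. Some members overlap another gene, and the strand setting of the counting is not given in the sources used here, so their reads may be shared. *Fam241b*, opposite to *Neurog3*, had 1417 UMIs in WT endocrine-like cells beside 1740 of *Neurog3*, and 3596 beside 7134 in the library labelled NFKO. *Cerkl*, on the strand of *Neurod1*, had 468 and 1184 beside 13673 and 31307, and the antisense genes at *Pax6* and *Nkx2-2* had 6 to 348 UMIs.

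*Neurog3*, *Neurod1* and *Neurod2* bind E-boxes, short motifs of which CAGCTG and CAGATG are the forms searched here, on both strands. The 250 bases before a start of transcription given by RefSeq on GRCm38.p6 are shown for the 4 members that held such a match, with the matching letters in capitals. For *Nkx2-2*, *Rfx6* and the second of 2 *Pax6* entries this start lies well inside the gene span given above, which comes from another annotation. Their windows are therefore not upstream of that span. The *Neurod1* window overlaps its span in part, and those of *Neurod2* and *Isl1* overlap theirs by no more than a few bases. Of the 9 members 7 had a promoter in the table, and *Neurod1*, *Pax6* and *Rfx6* held neither form there. *Insm1* and *Pax4* had none in the table. One or both forms occurred in 25.5% of 32851 promoters of this length, CAGCTG in 13.0% and CAGATG in 14.4%, so a match describes the letters and no binding. The windows are chr10:62132840-62133089 on the plus strand for *Neurog3*, with the match starting at -165 from the start site, and on minus strands chr11:98329646-98329895 for *Neurod2* (-118), chr13:116309689-116309938 for *Isl1* (-103) and chr2:147186403-147186652 for *Nkx2-2* (-220, read as CATCTG on the printed strand).
Neurog3: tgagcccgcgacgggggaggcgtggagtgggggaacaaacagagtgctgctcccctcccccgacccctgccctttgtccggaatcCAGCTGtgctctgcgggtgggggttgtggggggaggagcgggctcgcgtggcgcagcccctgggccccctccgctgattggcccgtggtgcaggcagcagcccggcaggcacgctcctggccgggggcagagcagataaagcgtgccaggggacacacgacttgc
Neurod2: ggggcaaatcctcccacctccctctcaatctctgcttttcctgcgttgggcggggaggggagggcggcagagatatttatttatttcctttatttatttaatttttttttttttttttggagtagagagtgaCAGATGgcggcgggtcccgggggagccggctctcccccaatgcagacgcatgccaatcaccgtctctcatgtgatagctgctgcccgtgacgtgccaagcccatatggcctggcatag
Isl1: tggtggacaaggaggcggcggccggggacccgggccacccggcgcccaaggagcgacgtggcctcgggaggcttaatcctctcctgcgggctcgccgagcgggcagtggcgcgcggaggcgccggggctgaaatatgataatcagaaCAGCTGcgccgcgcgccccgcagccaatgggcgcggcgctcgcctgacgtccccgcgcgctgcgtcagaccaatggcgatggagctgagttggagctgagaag
Nkx2-2: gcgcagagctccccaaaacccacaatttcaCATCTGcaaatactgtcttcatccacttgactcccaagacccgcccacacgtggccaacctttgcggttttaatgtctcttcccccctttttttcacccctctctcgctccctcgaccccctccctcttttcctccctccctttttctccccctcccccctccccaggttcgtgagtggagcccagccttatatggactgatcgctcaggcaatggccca

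The members' transcripts lay mostly in the endocrine-like clusters. In WT these clusters held 80% (*Rfx6*) to 90.0% (*Neurod1*) of a member's UMIs, and in the library labelled NFKO 94.1% (*Rfx6*) to 96.7% (*Neurod1*). Cluster 15, a low-depth cluster left unnamed, held 13.6% and 2.60% of *Rfx6* UMIs and 8.36% and 1.51% of *Pax6* UMIs. All remaining cells held 4.23% (*Isl1*) to 12.3% (*Neurog3*) in WT and 2.62% (*Isl1*) to 5.79% (*Pax4*) in the library labelled NFKO. Progenitors, a small part of all cells, held 56.1% and 55.2% of *Neurog3* UMIs, 34.6% and 36.3% of *Neurod2* UMIs and 36.0% and 35.2% of *Pax4* UMIs, but 1.53% and 2.87% of *Pax6* UMIs. Thinned to 2000 UMIs a cell, progenitors had a median of 4 members detected in WT and 5 among NFKO-labelled cells, Gip and Ghrl cells 4, Tph1 and Nts cells 2, and goblet-like cells 0 in both libraries. Thinning left out 29 and 388 shallow cells. Unthinned, the progenitor median was 7 in both libraries.

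**Figure D1:**
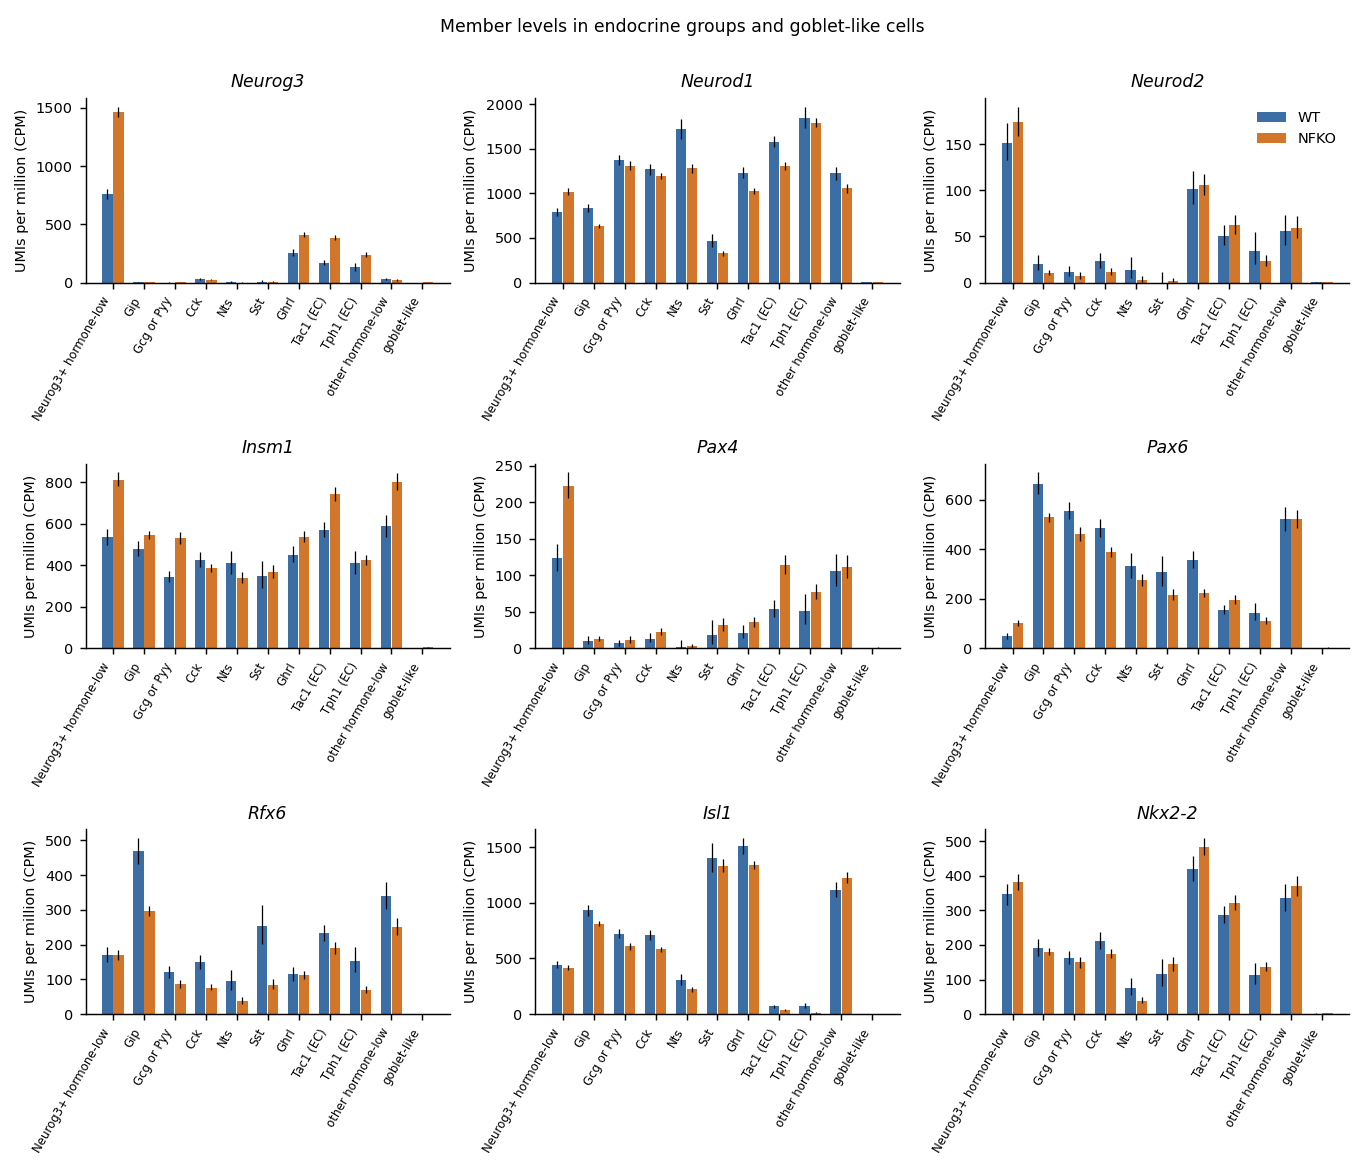
Levels of the 9 members in CPM (vertical axes, linear, from 0) in progenitors, 8 hormone groups, other hormone-low cells and goblet-like cells, for WT (blue) and the library labelled NFKO (orange), with bars for summed counts and lines for exact 95% Poisson intervals. *Neurog3*, *Neurod2* and *Pax4* were highest in progenitors, *Pax6* was lowest there among the endocrine groups, and *Isl1* was near 0 in the 2 enterochromaffin groups.

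*Neurog3*, which starts the endocrine programme, was at 759 CPM in WT progenitors and 1464 CPM in those of the library labelled NFKO. Among hormone cells it was highest in Ghrl cells, at 254 and 411 CPM, followed by Tac1 cells at 170 and 385 CPM and Tph1 cells at 130 and 240 CPM. Every other hormone group was at 27.3 CPM or lower in both libraries. These levels came from some of the cells: the median Tac1 cell had no *Neurog3* UMI in either library, while the cell at the 90th percentile had 649 and 1133 CPM. *Neurog3* passed the limit of 200 CPM in 29 of 97 and 97 of 213 Ghrl cells and in 27 of 144 and 69 of 200 Tac1 cells. In Tph1 cells it did so in 5 of 48 and 26 of 281. Gip, Gcg/Pyy and Nts cells had 0 such cells in WT and 1, 1 and 0 in the library labelled NFKO. The intervals of the Tac1 and Tph1 levels overlapped in WT, and those of Ghrl and Tac1 in the library labelled NFKO.

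*Neurod1*, the helix-loop-helix factor that follows *Neurog3*, was present in every endocrine group. It was at 793 CPM in WT progenitors and 1017 CPM in those labelled NFKO, and highest in Tph1 cells, at 1847 and 1791 CPM. Nts cells had 1717 and 1281 CPM, and Sst cells were lowest at 468 and 327 CPM, 3.95-fold and 5.49-fold below the Tph1 group. In WT the Tph1 and Nts intervals overlapped, and in the library labelled NFKO the Tph1 group stood clear. *Neurod2*, a close relative better known from neurons, had another pattern. It was highest in progenitors at 152 and 174 CPM, followed by Ghrl cells at 102 and 106 CPM, and it was near 0 in Sst cells, with 0 and 2 UMIs. Gip, Gcg/Pyy, Cck and Nts cells had between 3.10 and 23.1 CPM over the 2 libraries. The progenitor and Ghrl intervals did not overlap in either library.

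*Insm1*, a zinc-finger repressor shared by neuroendocrine tissues, varied least. Its highest and lowest hormone groups differed 1.66-fold in WT, from 344 CPM in Gcg/Pyy cells to 570 CPM in Tac1 cells, and 2.18-fold in the library labelled NFKO, from 340 CPM in Nts cells to 741 CPM in Tac1 cells. Progenitors were at 535 and 812 CPM, and the *Neurog3*-low hormone-low cells, 78 and 116 cells, at 587 and 801 CPM. In WT each group's interval overlapped that of its neighbour in the order.

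*Pax4* and *Pax6*, related paired-domain factors, ran in opposite directions. *Pax4*, a repressor, was highest in progenitors at 124 and 223 CPM and next among hormone cells in Tac1 cells at 53.4 and 114 CPM and Tph1 cells at 50.7 and 77.2 CPM. It was lowest in Nts cells, with 1 and 5 UMIs. The order of the 8 hormone groups was the same in both libraries (Spearman's rho 1 over 8 groups, as a description). *Pax6*, which activates hormone genes such as *Gcg*, was at 49.6 and 103 CPM in progenitors. It was highest in Gip cells at 665 and 528 CPM and in Gcg/Pyy cells at 556 and 461 CPM, and lowest among hormone cells in Tph1 cells at 144 and 111 CPM. In the library labelled NFKO the Tph1 and progenitor intervals overlapped. Few progenitors carried it: 30.1% and 37.7% had a *Pax6* UMI, beside 97.8% and 98.3% with an *Insm1* UMI at the same depth.

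*Rfx6*, a winged-helix factor needed for peptide hormone cells, was highest in Gip cells at 468 CPM in WT and 296 CPM among NFKO-labelled cells. Progenitors had 171 and 169 CPM, and Nts cells were lowest at 95.1 and 38.2 CPM. The order of the hormone groups was less alike between the libraries than for the other members, with rho 0.52 over 8 groups: Sst cells had 253 CPM in WT and 84.9 CPM in the library labelled NFKO.

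*Isl1*, a LIM-homeodomain factor of many endocrine cells and motor neurons, divided the subtypes. It was at 1511 and 1340 CPM in Ghrl cells and 1403 and 1333 CPM in Sst cells, whose intervals overlapped in both libraries. It was at 932 and 811 CPM in Gip cells, 722 and 609 CPM in Gcg/Pyy cells and 712 and 583 CPM in Cck cells. Enterochromaffin cells were lowest, at 69.7 and 38.8 CPM in the Tac1 group and 73.0 and 10.8 CPM in the Tph1 group. *Nkx2-2*, an NK-homeodomain factor, was highest in Ghrl cells at 421 and 485 CPM, then in progenitors at 347 and 382 CPM, and lowest in Nts cells at 75.7 and 39.2 CPM. The *Neurog3*-low hormone-low cells stood apart from progenitors in the later factors, with *Pax6* 10.49-fold and 5.07-fold higher, *Isl1* 2.51-fold and 2.95-fold, and *Neurod2* at 0.37 and 0.34. The hormone group with the highest level was the same in both libraries for 9 of 9 members.

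The progenitors were set beside hormone cells, 724 in WT and 1610 among NFKO-labelled cells, to see which members mark the start of the lineage and which its end. In both libraries 4 of 9 members were at least 1.5-fold higher in progenitors, where 9.19% of all 8923 genes compared were, and 2 of 9 were lower, where 22.2% were. The higher members were *Neurog3*, which chose the cells, *Neurod2* at 4.23-fold (3.55 to 5.04) and 6.05-fold (5.38 to 6.79), *Pax4* at 5.6-fold (4.55 to 6.89) and 6.28-fold (5.66 to 6.97), and *Nkx2-2* at 1.54-fold (1.39 to 1.69) and 1.78-fold (1.67 to 1.91). The lower members were *Pax6*, at a ratio of 0.12 (0.095 to 0.15) in WT and 0.30 (0.27 to 0.34) in the library labelled NFKO, and *Isl1*, at 0.64 and 0.65. The ratios of *Insm1* were 1.2 and 1.63, of *Rfx6* 0.84 and 1.15, and of *Neurod1* 0.61 and 0.95, so each passed the fold in at most 1 library. The median gene had a log2 ratio of -0.23 in WT and -0.09 among NFKO-labelled cells, and the median member 0.27 and 0.71. The call on *Isl1* depended on the choice of cells: among the hormone-low cells of the progenitor-like cluster, chosen without *Neurog3*, its ratio was 1.09 and 1.16.

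Hormone cells that still carried *Neurog3* held intermediate levels of *Pax4* and *Pax6*. There were 65 of them in WT and 199 among NFKO-labelled cells. Their *Neurod2* level, 147 and 135 CPM, was near that of progenitors, and it was 24.3 and 14.1 CPM in hormone cells without *Neurog3*. *Pax4* went from 124 and 223 CPM in progenitors to 64.6 and 127 CPM and then to 17.7 and 22.7 CPM. *Pax6* went the other way, from 49.6 and 103 CPM to 124 and 143 CPM and then to 439 and 365 CPM. *Isl1* was at 735 and 697 CPM in hormone cells with *Neurog3* and 696 and 634 CPM without it, and *Neurod1* at 1342 and 1105 CPM and at 1303 and 1066 CPM, ratios of 1.06 and 1.10 for *Isl1* and of 1.03 and 1.04 for *Neurod1*. *Insm1* went from 685 and 756 CPM with *Neurog3* to 420 and 461 CPM without it. *Nkx2-2* went from 383 and 437 CPM to 209 and 183 CPM.

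**Figure D2:**
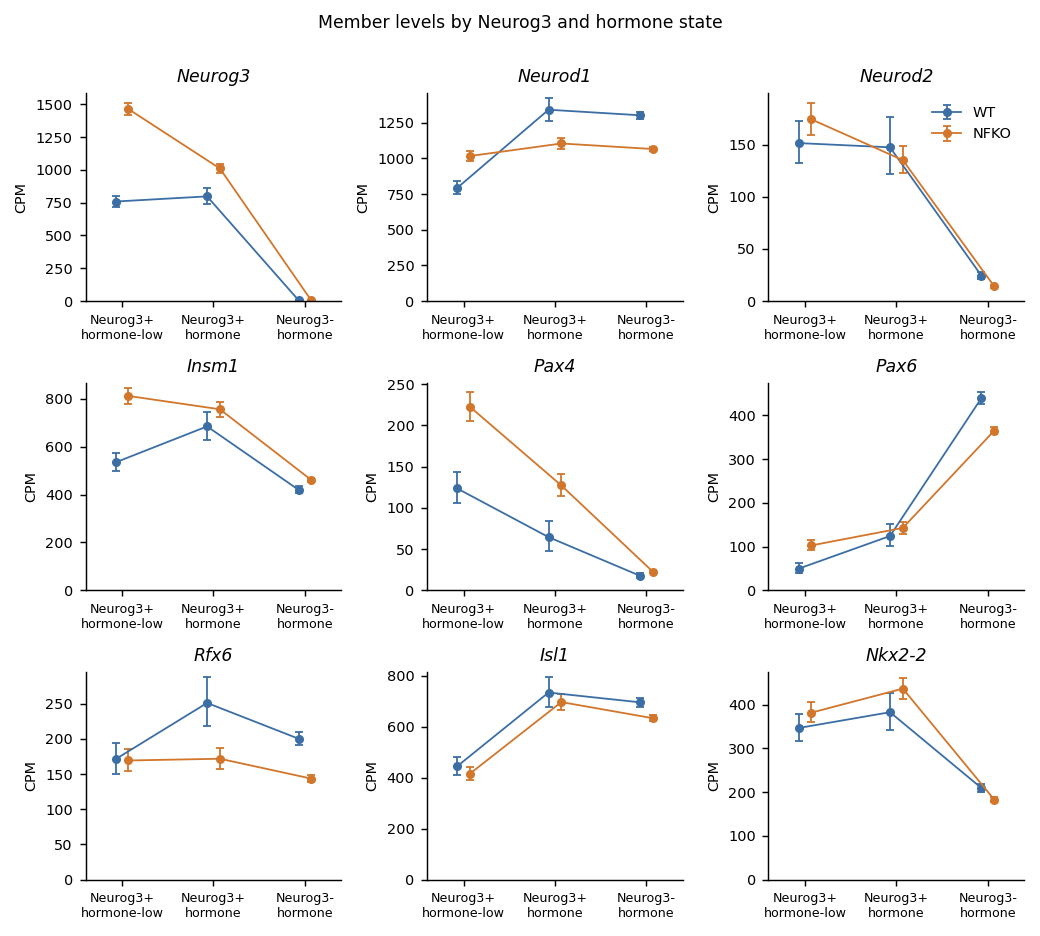
Levels of the 9 members in CPM (vertical axes, linear, from 0) in *Neurog3*-positive hormone-low cells, *Neurog3*-positive hormone cells and *Neurog3*-negative hormone cells, with exact 95% Poisson intervals, WT in blue and the library labelled NFKO in orange. *Neurod2* and *Pax4* ended at 24.3 and 14.1 CPM and at 17.7 and 22.7 CPM, and *Pax6* at 439 and 365 CPM.

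The hormone cells with *Neurog3* were mostly Ghrl and Tac1 cells, so the comparison was repeated within each group. In Ghrl cells *Pax6* was lower in *Neurog3*-positive than in *Neurog3*-negative cells, at a ratio of 0.15 (0.095 to 0.22) in WT and 0.29 (0.24 to 0.35) in the library labelled NFKO. *Neurod2* was higher, at 2.86-fold and 3.18-fold, and so was *Rfx6*, at 3.71-fold (2.61 to 5.32) and 1.72-fold (1.39 to 2.12). In Tac1 cells *Neurod2* was 3.24-fold and 2.83-fold higher with *Neurog3* and *Pax4* 2.82-fold and 2.13-fold, while *Pax6* was at 0.84 and 0.77. The 26 *Neurog3*-positive Tph1 cells of the library labelled NFKO had *Neurod1* at 0.53 (0.48 to 0.58) of the level in the other Tph1 cells and *Pax4* 6.93-fold higher (5.27 to 9.12). WT had 5 such cells, with *Neurod1* at 0.74 and *Pax4* at 1.74-fold with an interval of 0.57 to 4.52.

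Other genes of the endocrine programme were read from 3 lists. All genes of the secretory list but *Snap25* are also endocrine markers that named the endocrine-like clusters. Of 14 progenitor and commitment genes with enough counts, 9 were higher in progenitors than in hormone cells in both libraries, beside 9.19% of all genes, and 0 lower, beside 22.2%. They included *Mfng*, a Notch modifier, at 6.78-fold and 8.99-fold, *Rcor2*, a corepressor, at 5.21-fold and 6.02-fold, and *Tubb3*, a tubulin best known from neurons, at 4.83-fold and 7.08-fold. Of 10 secretory genes 10 were lower, from *Cpe*, a prohormone-processing enzyme, at 0.048 and 0.096 and *Pcsk1n* at 0.068 and 0.087 to *Pcsk1*, a prohormone convertase, at 0.35 and 0.57. Of 14 subtype and gut factors, 5 were lower, among them *Etv1* at 0.027 and 0.040, *Hhex*, a factor of somatostatin cells, at 0.083 and 0.15, and *Lmx1a*, an enterochromaffin factor, at 0.094 and 0.17, and 2 were higher, *Sox9* at 2.06-fold and 1.97-fold and *Foxa3*. The progenitors also carried markers of other types. Their summed goblet markers were 6642 and 7852 CPM, Paneth markers 3698 and 1540 CPM, stem markers 660 and 244 CPM and cycling markers 447 and 122 CPM, and the part of these cells in the ratios was not tested beyond leaving out progenitors outside the endocrine-like clusters. Without those, *Neurog3*, *Neurod2*, *Pax4* and *Nkx2-2* kept their calls and *Pax6* did, while *Isl1* was at 0.80 and 0.73.

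Enterochromaffin cells, 192 in WT and 481 among NFKO-labelled cells, were then set beside peptide cells, 532 and 1129. Of the 9 members 2 were higher in enterochromaffin cells in both libraries, where 7.28% of 8518 genes were, and 2 were lower, where 5.85% were. *Pax4* was 4.48-fold higher (3.33 to 6.04) in WT and 4.96-fold (4.33 to 5.68) in the library labelled NFKO, and *Neurog3* 3.0-fold (2.59 to 3.49) and 4.01-fold (3.74 to 4.31). *Isl1* was at a ratio of 0.077 (0.066 to 0.091) and 0.030 (0.025 to 0.035), and *Pax6* at 0.31 (0.28 to 0.34) and 0.39 (0.36 to 0.42). The remaining members lay closer to 1, from 1.14 and 1.06 for *Nkx2-2* to 1.46 and 1.65 for *Neurod2* and 1.37 and 1.67 for *Neurod1*, which passed the fold in NFKO-labelled cells, with *Rfx6* at 1.07 in WT and 0.82 among NFKO-labelled cells. *Insm1* was at 534 and 574 CPM in enterochromaffin cells and at 415 and 475 CPM in peptide cells. The median gene had a log2 ratio of 0.06 and 0.21.

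Among the listed subtype and gut factors 6 of 14 were higher in enterochromaffin cells in both libraries, beside 7.28% of all genes, and 4 lower, beside 5.85%. *Lmx1a* was 113-fold and 114-fold higher, and *Mnx1* 56.4-fold and 26.7-fold. *Hhex*, a homeodomain factor, was at 0.031, with 3 UMIs and an interval of 0.0064 to 0.093, and 0.039. Of 13 commitment genes 5 were higher and 0 lower, with *Tubb3* at 3.20-fold and 2.12-fold. The secretory list was split, with 4 of 10 higher, such as *Chga* at 13.3-fold and 12.0-fold, and 3 lower, such as *Scgn* at 0.049 and 0.064. Among *Neurog3*-negative cells *Pax4* was again higher and *Pax6* and *Isl1* lower in both libraries, and the level of *Neurog3* itself, which chose those cells, was not read.

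Progenitors themselves were not uniform in *Isl1*. *Isl1* reached 200 CPM and 3 UMIs in 42 of 93 WT progenitors and 67 of 175 of the library labelled NFKO, and the division was made after its values were seen. *Ghrl*, the gene of the hormone ghrelin, was 16.2-fold and 17.7-fold higher in the *Isl1*-positive cells. *Pax6* was 8.19-fold (4.45 to 16.3) and 2.56-fold (2.01 to 3.26) higher and *Nkx2-2* 1.58-fold and 1.79-fold. *Neurog3* was at 0.94 and 0.64 and *Pax4* at 0.85 and 0.72, and the intervals in WT included 1. *Tph1* was at 0.48 in WT, with 3 and 11 UMIs and an interval of 0.087 to 1.83, and at 0.12 in the library labelled NFKO, where *Chgb* was at 0.31. *Chga* was 2.36-fold and 1.43-fold higher. *Neurod2* was at 1.07 and 0.94, with intervals that included 1. The level of *Neurog3* itself was set beside *Isl1* too: progenitors at 500 CPM of *Neurog3* or more had *Isl1* at 0.93 (0.79 to 1.09) of the level in those at 200 to 500 CPM in WT and at 0.33 (0.29 to 0.37) among NFKO-labelled cells. *Mki67*, a marker of dividing cells, was at 1.89 CPM in *Isl1*-positive and 138 CPM in *Isl1*-low progenitors of WT, and at 0 and 15.9 CPM in the library labelled NFKO. Its part in these ratios was not tested.

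**Figure D3:**
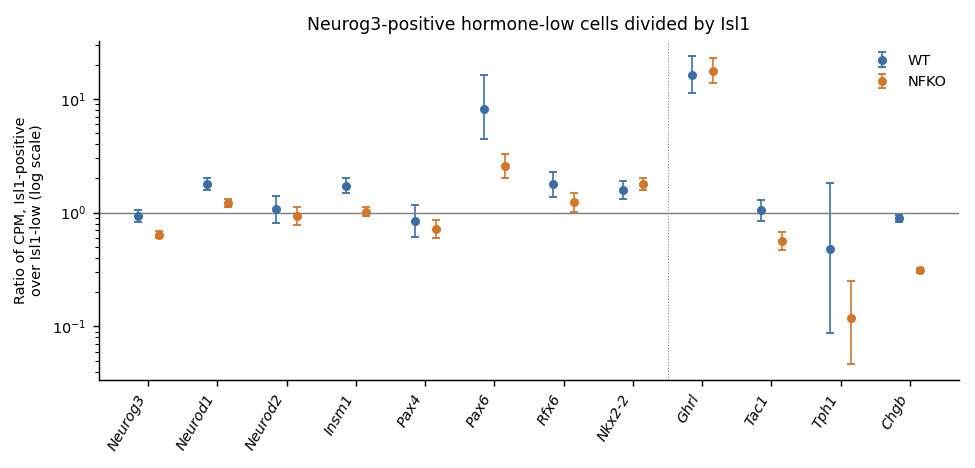
Ratio of CPM between *Isl1*-positive and *Isl1*-low *Neurog3*-positive hormone-low cells (vertical axis, log scale) for 8 members and, right of the dotted line, 4 other genes, WT in blue and the library labelled NFKO in orange, with exact 95% intervals. *Ghrl* stood above 10-fold in both libraries, *Pax6* at 8.19 and 2.56, and *Neurod2* near 1.

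Between the libraries, 1 of 9 members was at least 1.5-fold higher in the endocrine-like cells labelled NFKO, where 5.26% of 11621 genes were, and 0 were lower, where 4.83% were. That member was *Neurog3*, with 161 CPM in WT, 245 CPM among NFKO-labelled cells and a ratio of 1.52 (1.45 to 1.61). *Pax4* followed at 1.38 (1.24 to 1.54) and *Insm1* at 1.14 (1.11 to 1.18). *Nkx2-2* was at 0.95, *Isl1* at 0.92, *Pax6* at 0.86, *Neurod1* at 0.85 and *Neurod2* at 0.84. *Rfx6* was lowest, at 216 and 157 CPM, a ratio of 0.73 (0.69 to 0.76). Among male-typed cells *Neurog3* was at 1.38 (1.24 to 1.53) and *Rfx6* at 0.59 (0.52 to 0.67), so *Neurog3* did not reach the fold there and *Rfx6* did. The subtypes were not in the same proportions in the 2 libraries: the Tph1-rich cluster held 31 and 264 cells, and with equal weight for each subtype *Neurog3* was at 1.74 and *Pax4* at 1.55.

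**Figure D4:**
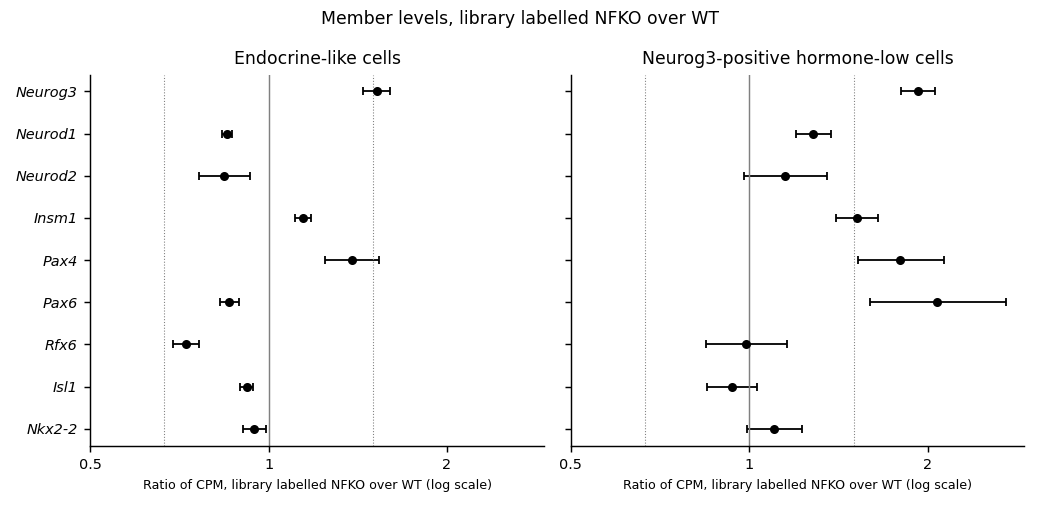
Ratio of CPM, library labelled NFKO over WT, for the 9 members (horizontal axes, log scale) in endocrine-like cells and in *Neurog3*-positive hormone-low cells, with exact 95% counting intervals. Solid lines mark 1 and dotted lines the 1.5-fold limits. *Neurog3* stood at 1.52 and 1.93 and *Rfx6* at 0.73 and 0.99.

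In progenitors 4 of 9 members were higher in the library labelled NFKO, where 7.77% of 5447 genes were, and 0 were lower, where 4.42% were. *Pax6* was at 49.6 CPM in WT and 103 CPM among NFKO-labelled cells, 2.07-fold (1.6 to 2.72), *Pax4* 1.80-fold (1.52 to 2.14) and *Insm1* 1.52-fold (1.40 to 1.65). *Neurog3*, which chose the cells, was at 1.93-fold (1.80 to 2.06). *Neurod1* at 1.28 and *Neurod2* at 1.15 did not reach the fold. *Isl1* at 0.94, *Rfx6* at 0.99 and *Nkx2-2* at 1.10 had intervals that included 1 or reached 0.99. *Insm1* passed the fold under none of the 4 alternatives run, which were the 500 CPM limit, male-typed cells, equal weight for each cell and progenitors of endocrine-like clusters. The count of 4 was 1 where progenitors had to reach 500 CPM of *Neurog3*, with *Pax6* then at 1.21, *Pax4* at 1.45 and *Insm1* at 1.29. Among male-typed progenitors, 82 in WT and 10 among NFKO-labelled cells, *Neurog3* and *Pax4* were higher and *Pax6* was at 1.06. Without progenitors outside the endocrine-like clusters *Neurog3* was at 1.74, *Pax6* at 1.78, *Pax4* at 1.65 and *Insm1* at 1.34. *Hspa1a*, a heat-shock gene, was at 350 CPM in WT progenitors and 10.3 CPM in the others. Markers of other cell types moved as well: summed cycling markers went from 447 CPM in WT to 122 CPM among NFKO-labelled progenitors, stem markers from 660 to 244 CPM and Paneth markers from 3698 to 1540 CPM. Goblet markers were at 6642 and 7852 CPM. The part of these in the ratios was not tested.

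The 3 lists were read between the libraries too, beside 7.77% of all genes higher and 4.42% lower in progenitors. In those of the library labelled NFKO 3 of 14 commitment genes were higher, *Tubb3* at 2.13-fold, *Mfng* at 1.96-fold and *Runx1t1* at 1.82-fold, and *Dll1*, a Notch ligand, was lower at 0.60. Of 9 secretory genes 7 were higher, such as *Pcsk1n* at 2.11-fold and *Chgb*, a granule protein, at 2.0-fold. Of 9 subtype and gut factors 2 were higher, *Fev* at 2.73-fold and *Rfx3* at 1.52-fold, and 2 lower, *Sox9* at 0.61 and *Hnf4a* at 0.65. Over all endocrine-like cells, where 5.26% of all genes were higher and 4.83% lower, 1 of 15 commitment genes was higher, *Tubb3* at 1.53-fold, a share near that of all genes. Of 15 subtype and gut factors *Pdx1*, at 2.85-fold, and *Hhex*, at 1.88-fold, were higher and 2 lower, *Etv1* among them, and of 10 secretory genes *Scg5* and *Pcsk1n* were higher.

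Within hormone groups the direction for *Neurog3* was the same where it had many counts: the library labelled NFKO was at 1.62 (1.43 to 1.83) in Ghrl cells, 2.26 (1.98 to 2.59) in Tac1 cells and 1.85 (1.43 to 2.42) in Tph1 cells. *Rfx6* was lower in Sst cells at 0.34 (0.25 to 0.45), Nts cells at 0.40 (0.28 to 0.59), Tph1 cells at 0.45 (0.35 to 0.60), Cck cells at 0.51 (0.43 to 0.62) and Gip cells at 0.63 (0.58 to 0.69), and at 0.98 in Ghrl cells. *Isl1* was lower in Tph1 cells, from 36 UMIs in 48 cells to 31 UMIs in 281 cells, a ratio of 0.15 (0.089 to 0.25), and in Tac1 cells at 0.56 (0.42 to 0.73). Both ratios rest on few WT cells. The 36 UMIs lay in 5 Tph1 cells, 2 of which held at least as many as the others together, and the 120 UMIs of WT Tac1 cells lay in 10 of 144 cells, with 3 holding as much. *Isl1* UMIs were found in 10.4% and 8.54% of Tph1 cells and in 6.94% and 12.5% of Tac1 cells, and after thinning in 10.4% (3.47 to 22.7) and 2.86% (1.24 to 5.55) of Tph1 cells and in 6.25% (2.90 to 11.5) and 4.08% (1.78 to 7.88) of Tac1 cells, with intervals that overlapped. *Insm1* was 1.54-fold higher in Gcg/Pyy cells (1.39 to 1.70). *Pax6* was at 0.62 (0.55 to 0.70) in Ghrl cells and 1.26 (1.09 to 1.47) in Tac1 cells. The Ghrl value mixes cells of both kinds, since 29 of 97 and 97 of 213 were *Neurog3*-positive: *Pax6* was at 70.4 and 94.998 CPM in those, with overlapping intervals, and at 476 and 323 CPM in the *Neurog3*-negative Ghrl cells. Summed goblet markers were higher among NFKO-labelled cells in 8 of 8 hormone groups. They were at 965 and 4699 CPM in Sst cells, 3571 and 8104 CPM in Cck cells, 1042 and 2671 CPM in Gip cells, 956 and 2767 CPM in Tac1 cells, 2567 and 6246 CPM in Tph1 cells and 6858 and 8365 CPM in Nts cells. Median depth per cell differed in some groups, with 4977.5 UMIs in WT and 16888 in NFKO-labelled Nts cells and 7925 and 16394 in Sst cells. The part of the markers and of depth was not tested.

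Goblet-like cells held little of any member. In these cells, 840 in WT and 1531 among NFKO-labelled cells, the members stood at 0.0977% to 0.453% of their endocrine-like level in WT and at 0.404% to 1.66% in the library labelled NFKO. The granule genes *Chga* and *Chgb*, which goblet cells should lack and which serve here as a background, stood at 0.144% and 0.123% in WT and 0.862% and 0.577% in the library labelled NFKO. In WT every member but *Neurog3* stood above both granule genes as a point value, with *Nkx2-2* highest at 0.453% (0.284 to 0.686). In the library labelled NFKO *Pax4*, *Nkx2-2* and *Pax6* stood above both, and the other members lay below *Chga*. Not all of these intervals were clear of the granule genes. All 9 members were at least 1.5-fold higher in endocrine-like than in goblet-like cells, where 52.9% of 10449 genes were, and 9 were at least 20-fold higher, where 5.55% were, a limit chosen after the values were seen. The ratios ran from 221 (146 to 353) for *Nkx2-2* to 550 (372 to 850) for *Isl1* among the 6 WT members with 10 or more goblet UMIs. *Neurog3*, with 3 goblet UMIs, was at 1024 with an interval of 350 to 4970.2, *Neurod2*, with 4, at 252, and *Pax4*, with 2, at 398 (110 to 3297). In the library labelled NFKO they ran from 60.2 (41.8 to 90.2) for *Pax4* to 248 (173 to 367) for *Neurog3*. With no doublet removal and classes taken from a marker score, 2 choices changed together, the ratios of the 9 members were several times smaller, from 67.3 to 343 in WT, with *Isl1* at 96.4, and from 17.7 to 41.0 in the library labelled NFKO. The median gene had a log2 ratio of 0.77 and 0.76. Of the listed genes with enough counts, 10 of 10 secretory genes, 7 of 16 commitment genes and 7 of 15 subtype and gut factors were at least 20-fold higher in endocrine-like cells in both libraries. All of these secretory genes but *Snap25* are also endocrine markers that named the clusters, so their count was largely set by that choice. The goblet-like class came from different clusters in the 2 libraries, with 583 and 20 cells in cluster 2, led by *Edn2*, *Areg* and *Hspa1a*, 92 and 794 in cluster 0 and 165 and 717 in cluster 1. The 30 *Neurog3* UMIs in NFKO-labelled goblet-like cells lay in 8 cells.

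**Figure D5:**
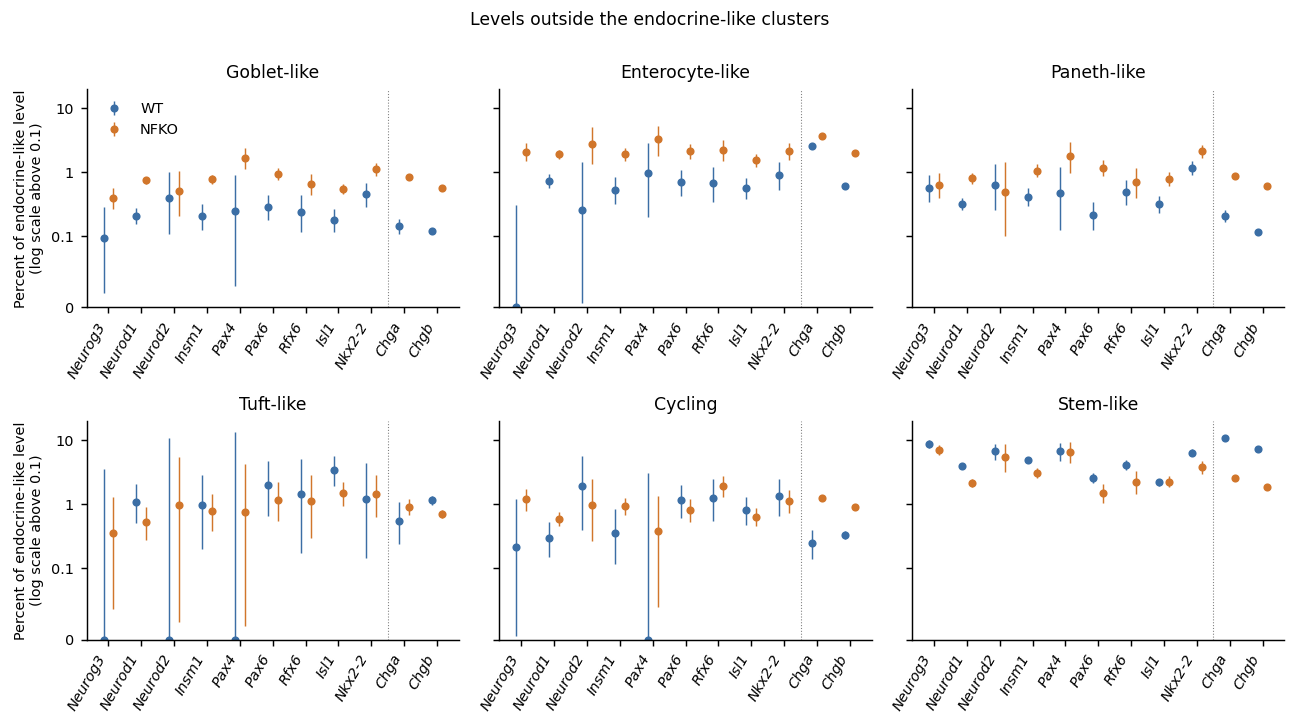
Level of each member and of *Chga* and *Chgb* in 6 classes outside the endocrine-like clusters as a percent of the level in endocrine-like cells (vertical axis, log scale above 0.1%), WT in blue and the library labelled NFKO in orange, with exact 95% Poisson intervals. In goblet-like cells no member was above 1.66%, and in stem-like cells *Neurog3* was at 8.79% and 7.06%.

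Some other classes also held more than the granule genes did. In Paneth-like cells *Nkx2-2* was at 1.17% (0.89 to 1.5) in WT and 2.16% (1.68 to 2.72) in the library labelled NFKO, beside *Chga* at 0.21% and 0.87%. In WT 3 of 262 cells held at least as many of its 61 UMIs as the others together, and after thinning 2 cells in each library had one. In tuft-like cells *Isl1* was at 3.45% with 16 UMIs in 4 cells and 1.51% with 23 UMIs in 6 cells, so few cells set the value. In stem-like cells *Neurog3* was at 8.79% and 7.06%, but 6 and 4 progenitors lay in that cluster, and 6 of 285 and 3 of 148 cells held at least as many of these UMIs as all its other cells together. *Chga* stood at 11.04% and 2.62% there and *Chgb* at 7.43% and 1.89%. In the 88 and 26 stem-like cells with no *Chga* or *Chgb* UMI *Neurog3* had 0 UMIs, which allows up to 0.64% and 2.2% of the endocrine-like level.

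Cluster 11 was named by no marker list, and *Dll1*, *Gfi1* and *Spdef*, factors of early secretory cells, were among its leading genes. It held *Neurog3* at 12.7 CPM in WT and 9.21 CPM in the library labelled NFKO, 7.86% (4.87 to 12.0) and 3.76% (2.82 to 4.9) of the endocrine-like level. *Neurod1* was at 0.143% and 0.285%, *Isl1* at 0.251% and 0.284% and *Chgb* at 0.0847% and 0.344%. Its *Neurog3* UMIs lay in 5 of 76 cells and 8 of 231 cells, of which 1 and 3 were progenitors.

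Levels of the members across groups were compared with those of all other genes as a description. Over 32 groups of at least 30 cells, which share their libraries and differ in depth, the gene most like *Neurog3* was *Tubb3*, with Pearson's r 0.88 among 6440 genes, and *Tubb3* was also most like *Pax4*, at 0.96. *Neurod1* was most like *Syt13* (0.99), *Insm1* like *Vwa5b2* (0.99), *Pax6* like *Gnao1* (0.99), *Rfx6* like *Itpr1* (0.98) and *Nkx2-2* like *Gfra3* (0.98). *Isl1* was most like *Scgn* (0.97) and *Neurod2* like *Map3k15* (0.90). Over the 20 endocrine groups alone *Tubb3* stayed most like *Neurog3* (0.89), and every other member had another gene in first place. Examples were *Gtpbp2* for *Neurod1* (0.92), *Polr2i* for *Insm1* (0.90) and *Trim35* for *Pax6* (0.92). Between members, over the 20 endocrine groups, r was 0.82 for *Neurog3* and *Pax4*, 0.76 for *Neurod2* and *Nkx2-2* and -0.72 for *Neurog3* and *Pax6*. Over all 32 groups these were 0.84, 0.87 and 0.39, so the sign for *Neurog3* and *Pax6* depended on the groups used. *Neurog3* itself chose the progenitors and the *Neurog3*-low hormone-low cells among these groups, so its r values were partly set by that choice.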

How the data were processed

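Whole-number UMI counts per gene and cell were deposited as one matrix per library. Per the submitters' processing notes the authors used Cell Ranger 5.0.1 and mm10. The annotation release and any filter on barcodes are not given in the sources used here. Barcodes with at least 500 genes, 1000 UMIs and no more than 25% of UMIs from mitochondrial genes passed, and 126 (WT) and 340 (NFKO) cells with the highest doublet scores, at a preset rate of 0.8% per 1000 barcodes, were removed. The libraries shared 6 deposited and 4 kept barcode sequences. Kept UMIs were 78089562 and 106875782.

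Cells were clustered in Seurat 5.3.0 (R 4.3.3) on 2000 variable genes with the members left out, 30 principal components and resolution 0.8. Clusters took a class name from markers at least 2-fold higher in the cluster, at least 3 of them. Clusters 7, 11 and 15 stayed unnamed. Counts were summed per library and group (Python 3.11.15). With 1 library per group no test was possible, and levels carry exact Poisson, ratios conditional binomial and shares Clopper-Pearson intervals of 95%, which cover counting error only. The ratios, their intervals and the fold calls were tested on counts simulated with known folds, without variation between cells or mice. Thinned counts were compared with those expected from depth. Filtering, doublet removal, clustering and the division of cells were not simulated. All 9 members were computed in each comparison, though not each is named in every paragraph. Genes of 3 programme lists were given as counts with examples of large and small ratios. Some listed genes are counted but not reported by name here. Likeness used log2(CPM + 1) and genes with at least 50 CPM in 1 group. Members and lists were chosen with earlier results of these data known. Cells near a limit were 56 and 97 endocrine-like cells with *Neurog3* at 100 to 400 CPM, and 146 and 236 with their top hormone at 0.25 to 1% of UMIs. Gene positions are those of GENCODE M21.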

Additional observations from a re-analysis of the deposited data

Results flagged for a closer look

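*Pax6* differed between the libraries in opposite directions in 2 groups of cells: it was 2.07-fold higher in the library labelled NFKO in *Neurog3*-positive hormone-low cells and at 0.62 in Ghrl cells. The first ratio was 1.21 where progenitors had to reach 500 CPM of *Neurog3* and 1.06 in male-typed cells. The Ghrl cells held 29 of 97 and 97 of 213 *Neurog3*-positive cells, with *Pax6* at 70.4 and 94.998 CPM in those and at 476 and 323 CPM in the others. The difference between the 2 ratios was not tested, since each group is 1 library.

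*Rfx6* was high in cluster 15, which entered the comparisons only as an alternative. This cluster of 147 WT and 123 NFKO-labelled cells held 11 of the 13 endocrine markers at a level at least 2-fold higher than in the other cells but stayed unnamed because of its low depth, with median UMIs of 3982 and 1812. *Rfx6* stood at 637 CPM in WT and 393 CPM in the library labelled NFKO, 295% and 251% of the endocrine-like level. *Pax6* was at 167% and 144% and *Isl1* at 122% and 103%, while *Neurog3* was at 6.00% and 2.54% and *Nkx2-2* at 53.8% and 37.6%. The leading genes of cluster 15 included *Nnat*, *Cnr1* and *Gip*, which also led cluster 4 of the endocrine-like clusters. Gip cells had *Rfx6* at 468 and 296 CPM. Their *Pax6* level was 665 and 528 CPM, beside 642 and 474 CPM in cluster 15. Whether cluster 15 holds Gip cells at low depth was not tested.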

How the results depend on the processing

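No paired analysis was possible because each group was 1 library, and leaving out a replicate was not possible for the same reason. Over 339 values recomputed under other settings 178 stayed within their interval or near their count, 159 moved and 2 reversed. The 178 include counts that changed a little. Examples are 4 to 3 members higher in progenitors and 9 to 7 members 20-fold above goblet-like cells. The 2 reversed values were *Isl1* in progenitors over hormone cells, at 1.09 (WT) and 1.16 (NFKO-labelled) among hormone-low cells of the progenitor-like cluster. Alternatives with cluster 15, equal subtype weight, hormone genes left out of the total, *Neurog3*-negative cells or progenitors of endocrine-like clusters were chosen after seeing the data. The 1 member higher in NFKO-labelled endocrine-like cells became 2 with every deposited barcode and with equal subtype weight (*Pax4* added) and 0 in male-typed cells. The 0 lower became 1 (*Rfx6*) with a marker score of each cell, in male-typed cells, with cluster 15 and with equal subtype weight. The 2 members lower in progenitors became 1 (*Pax6*) with hormone-low cells of the progenitor-like cluster, hormone at least 2%, equal cell weight, and progenitors of endocrine-like clusters. The 4 higher became 3 with hormone genes left out of the total, where *Nkx2-2* no longer passed. The 4 higher in NFKO-labelled progenitors became 1 (*Neurog3*) at 500 CPM and 2 (*Neurog3*, *Pax4*) in male-typed cells, where 2 were lower (*Isl1*, *Nkx2-2*) in 10 NFKO-labelled cells. They became 3, without *Insm1*, with equal cell weight and with progenitors of endocrine-like clusters. The top subtype, the same in both libraries for 9 members, was so for 4 with hormone at least 2%, which left 4 and 5 Tac1 cells. It also differed between the libraries for *Neurog3*, *Pax4* and *Isl1* in *Neurog3*-negative cells. With equal cell weight it differed for *Isl1*, and with hormone genes left out of the total for *Neurod1*. Of 72 top subtypes compared over members, libraries and alternatives 12 changed. With no doublet removal and a marker score, changed together, 7 of 9 members were 20-fold above goblet-like cells, with *Pax4* at 17.7 and *Neurod2* at 19.9 in the library labelled NFKO. Causes were not tested. *Neurog3* in endocrine-like cells ranged from 1.38 to 1.74 and *Rfx6* from 0.59 to 0.74. Depth limits *Neurod2* and *Pax4*, with 572 and 451 UMIs in WT endocrine-like cells.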
